A study of Mus musculus with 64 samples.

Results

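A set of 9 complement genes tied to synapse pruning was described in microglia: C1qa, C1qb, C1qc, C3, C4b, C3ar1, C5ar1, Itgam and Itgb2. They were taken by name from a gene count table, in which they are 9 of 49671 genes, and the rule used no measured value. The table holds 64 total RNA libraries of microglia from male C57BL/6 mice, given in the methods as C57BL6/N and 9 to 10 weeks old, with 32 libraries for the hippocampus and 32 for the frontal cortex. Each region has 16 Day and 16 Night libraries, and each phase has 4 libraries of each of the conditions Ctr0, Ctr1, Cogn and Soci. The labels give no genotype change, no drug and no meaning for the condition names. According to the paper, microglia came from a single time point in each phase, ZT4 in the light and ZT16 in the dark (zeitgeber time). The animals were housed with lights off during laboratory daytime. The labels give no zeitgeber time, so the names Day and Night are used as they stand. The cells were dissociated in the cold and collected with magnetic beads against CD11b, the protein that Itgam encodes, so one of the 9 genes was also the handle of the sort. Nothing in the labels says that replicates came from separate animals, so p-values measure the spread between these libraries.

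Complement is a cascade of plasma and tissue proteins that tags surfaces for removal. In the classical pathway, C1q binds a target and leads through C4 to the cleavage of C3, whose fragments stay on the surface or act as soluble signals. In the brain, microglia are the main source of C1q, and their receptor CR3, a pair of the integrin chains CD11b and CD18, takes up synapses that carry C3 fragments during developmental pruning.

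All 9 genes had counts in all 64 libraries and passed the filter on low counts in both regions. C1qa, C1qb and C1qc, which encode the chains of C1q, lie side by side on the minus strand of chromosome 4 of GRCm38, at 136895917 to 136898803, 136880129 to 136886187 and 136889804 to 136893065. C3 and C4b, the soluble components, are on chromosome 17, at 57203970 to 57228136 and 34728380 to 34743882. C3ar1 and C5ar1, the receptors of the anaphylatoxins C3a and C5a, are on chromosomes 6 and 7, at 122847138 to 122856161 and 16246743 to 16259540. Itgam and Itgb2, which encode CD11b and CD18, are on the plus strand of chromosome 7 at 128062640 to 128118491 and of chromosome 10 at 77530252 to 77565708. Itgam shares 68.7% of its exon bases with Gm49368, an annotated gene on the same strand whose highest count was 20, and 1574 of its exon bases are unshared. C4b has a near-identical neighbour, C4a, whose counts were 2.77% to 23.8% of those of C4b in a library, and reads could be split between them.

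The promoters of 3 members are shown because C1qb and C1qc moved together with C1qa in these libraries and C5ar1 had the largest day-night change of the 9. Each is 250 bases before to 50 bases after the annotated start, read 5′ to 3′ on the gene's strand from RefSeq sequences of GRCm38.p6. They lie at chr4:136886151-136886450 for C1qb, chr4:136892865-136893164 for C1qc and chr7:16259289-16259588 for C5ar1. Capitals mark GAGGAA, a core of the sites bound by PU.1, a transcription factor of myeloid cells, or its reverse complement.
C1qb: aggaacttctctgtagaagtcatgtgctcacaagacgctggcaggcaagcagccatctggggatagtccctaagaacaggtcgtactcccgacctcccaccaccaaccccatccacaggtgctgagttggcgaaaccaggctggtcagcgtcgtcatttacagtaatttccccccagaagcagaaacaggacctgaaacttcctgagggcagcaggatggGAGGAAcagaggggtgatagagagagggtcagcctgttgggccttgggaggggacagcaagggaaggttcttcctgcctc
C1qc: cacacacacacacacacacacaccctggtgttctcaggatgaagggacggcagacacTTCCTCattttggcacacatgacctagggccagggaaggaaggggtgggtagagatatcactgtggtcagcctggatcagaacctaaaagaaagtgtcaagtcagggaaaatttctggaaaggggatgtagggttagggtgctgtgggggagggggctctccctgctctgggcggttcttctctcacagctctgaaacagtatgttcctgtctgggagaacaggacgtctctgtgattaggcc
C5ar1: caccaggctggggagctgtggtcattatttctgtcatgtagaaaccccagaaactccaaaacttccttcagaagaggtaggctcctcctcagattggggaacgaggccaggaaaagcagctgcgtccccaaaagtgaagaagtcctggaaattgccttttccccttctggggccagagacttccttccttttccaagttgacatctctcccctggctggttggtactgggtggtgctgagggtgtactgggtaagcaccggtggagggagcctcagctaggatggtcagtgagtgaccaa
Of the 9 genes, 6 matched a promoter, and C1qa, C4b and Itgb2 did not. GAGGAA was found on either strand in 3 of the 6, at position 221 of C1qb and position 58 of C1qc, counted from 1 at the 5′ end, and in Itgam, and 28.3% of 32851 promoters of the same length hold it. CACGTG, the E-box of the circadian clock factors, was in none of the 6 and in 7.15% of all promoters. A palindromic glucocorticoid response element was in none of the 6 and in 0.475% of all. Only GAGGAA was found in the 6, so no motif overlapped another there, and a match in letters is a description only.

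Library totals ran from 10.2 to 84.5 M counts, with a median of 15.9 M, and replicate 4 of hippocampal Night Soci, Night Cogn and Day Cogn were the 3 deepest. The noncoding gene Gm26917 took 35.4% of all counts, Gm42418 5.56%, mt-Rnr2 2.73% and Gm23935 2.30%. A scale of library totals alone therefore depends strongly on these few genes. Of 18 microglia marker genes, none was at 0 in all libraries, and Csf1r and Cx3cr1 were among those of highest level. Their summed level ran from 16194 to 27514 CPM in the hippocampus and from 15375 to 32330 CPM in the frontal cortex. No marker list of another cell type had a gene at 0 in all libraries either. Choroid plexus markers summed to 30.1 to 5196 CPM in hippocampal Night libraries. These values therefore do not measure how pure the cells were. Levels are given as CPM, a count relative to the library total, after TMM, a scaling that assumes that most genes do not differ between libraries.

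The levels of the 9 genes spread over orders of magnitude on a scale per length. Mean levels per kilobase of exon in the hippocampus were 769 CPM for C1qb, 763 CPM for C1qa and 346 CPM for C1qc, and those in the frontal cortex were 841, 797 and 330 CPM. Itgb2 followed at 61.0 and 64.7 CPM per kilobase, then C3ar1 at 27.7 and 33.0 and C5ar1 at 15.0 and 14.6. The soluble components were lowest. C4b had a mean of 4.69 ± 1.36 (SD, n = 32) CPM per kilobase in the hippocampus and 6.18 ± 2.00 (SD, n = 32) in the frontal cortex. C3, the hub of the cascade, had 0.283 ± 0.122 (SD, n = 32) and 0.476 ± 0.338 (SD, n = 32), on 7 to 146 counts per library. For Itgam the level was 22.4 CPM per kilobase over all its exon bases and 71.6 CPM over the unshared ones in the hippocampus, so its place next to Itgb2 and C3ar1 depends on that choice.

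**Figure D1:**
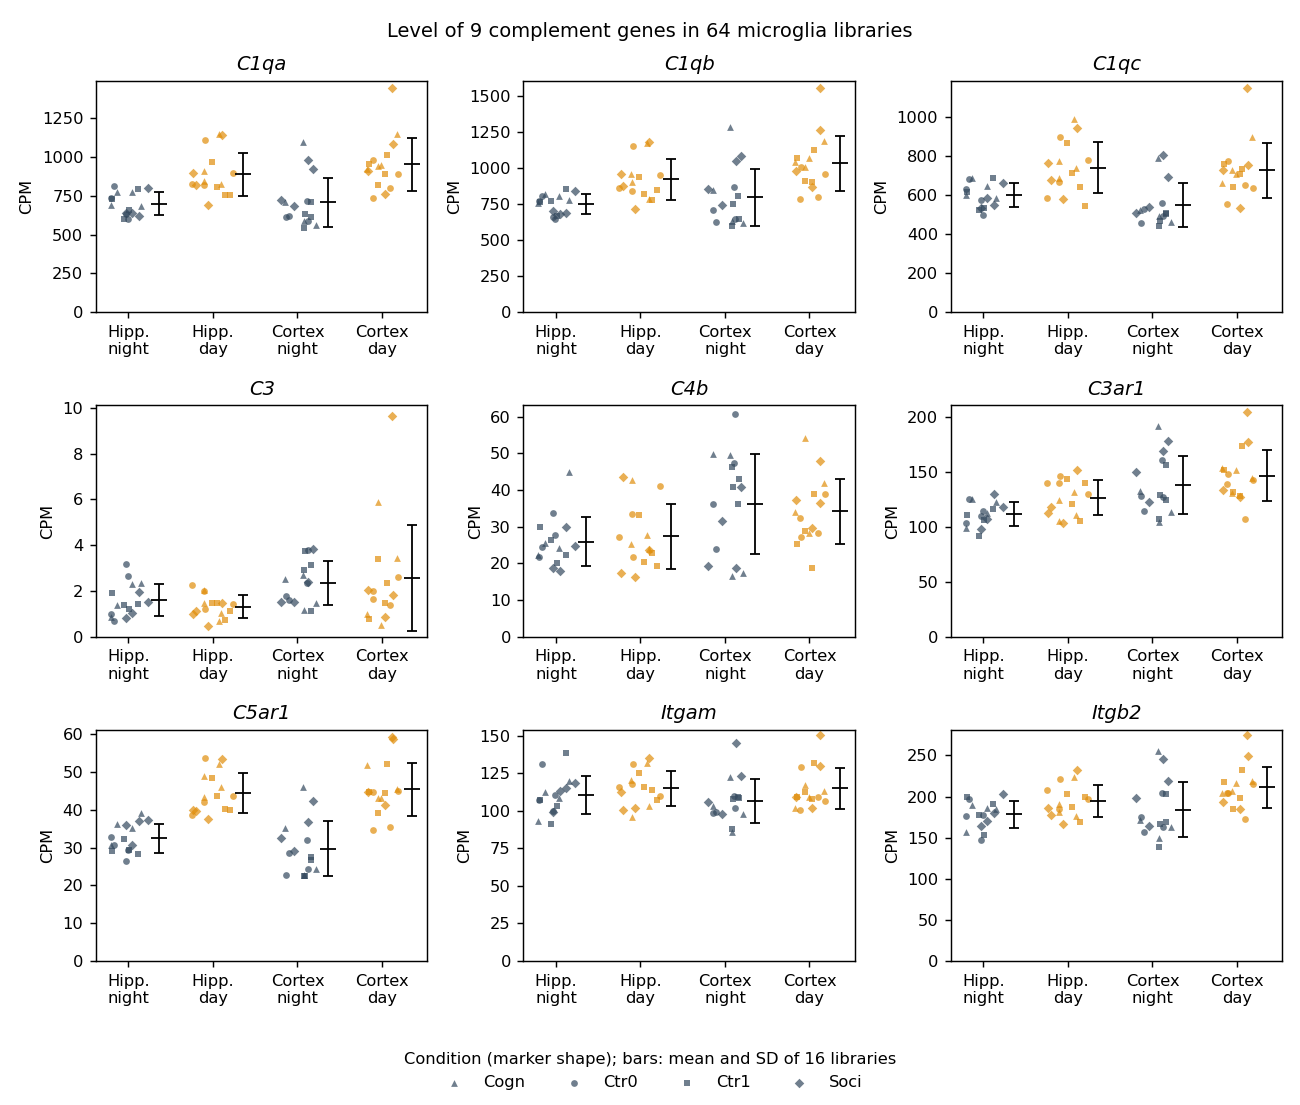
Level of each gene in CPM (vertical axes, linear, from 0) in the 64 libraries, split by region and phase (horizontal axis), with points for libraries, the condition as marker shape and bars for the mean and SD of 16 libraries. C5ar1 is higher in 14 of 16 hippocampal Day libraries than in any Night library, while the phases of Itgam and C4b overlap widely.

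The first question of the design is whether microglia differ between day and night. Among the 9 genes, 6 were higher by day in the hippocampus and 5 in the frontal cortex, and none was lower, by edgeR's quasi-likelihood test with Benjamini-Hochberg adjustment over all genes tested. Of all genes tested, 42.2% changed in the hippocampus, 23.4% upward and 18.8% downward, and 41.8% changed in the frontal cortex, 20.6% upward and 21.3% downward. The median log2 change over the members was 0.21 in the hippocampus and 0.19 in the frontal cortex, against 0.02 and −0.02 over all genes. The 3 C1q chains, C5ar1 and Itgb2 rose in both regions, and C3ar1 rose in the hippocampus. C3, C4b and Itgam did not pass in either region. Without the replicate 2 libraries, and so with fewer libraries per phase, 3 of the 9 passed in the frontal cortex. The share of all genes in that fit is not given here. With library totals alone as scale, the median of all genes was −0.14 in the hippocampus and −0.09 in the frontal cortex, and 1 member (C5ar1) was higher by day in the hippocampus and 3 (C5ar1, C1qa and C1qc) in the frontal cortex, while Itgam and Itgb2 were at −0.09 and −0.01 in the hippocampus. On that scale 1.69% of all genes were higher and 26.0% lower in the hippocampus, and 4.36% and 22.8% in the frontal cortex.

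C5ar1, the receptor that draws phagocytes towards C5a, had the largest change. Its level in the hippocampus was 37.6, 43.4 and 53.5 CPM (lowest, median, highest of 16) by day and 26.4, 31.5 and 39.1 CPM by night. In 14 of 16 Day libraries it was above the highest Night library, and the groups overlapped only at their edges. The change was 1.39-fold (log2 0.48 ± 0.06 SE, edgeR adjusted p = 1.56e-07). Cortical levels were 34.5, 44.6 and 59.3 CPM by day and 22.3, 28.0 and 46.1 CPM by night. There, 12 of 16 Night libraries were below the lowest Day library, while a few Night libraries reached the Day range. The change was 1.52-fold (log2 0.60 ± 0.10 SE, edgeR adjusted p = 1.20e-05).

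The C1q chains rose by about the same amount as one another. C1qa in the hippocampus had 691, 837 and 1144 CPM by day and 602, 687 and 811 CPM by night, a 1.30-fold change (log2 0.37 ± 0.07 SE, edgeR adjusted p = 3.02e-05). In 12 of 16 Day libraries it was above the highest Night library. Cortical C1qa had 735, 931 and 1442 CPM by day and 543, 658 and 1092 CPM by night, a 1.34-fold change (log2 0.42 ± 0.09 SE, edgeR adjusted p = 6.66e-04). Only 2 Day libraries there lay above the highest Night library, although 13 Night libraries lay below the lowest Day library. C1qb had 716, 892 and 1177 CPM by day and 646, 769 and 857 CPM by night in the hippocampus, and 784, 1008 and 1555 CPM against 601, 746 and 1283 CPM in the frontal cortex. All 16 cortical Day libraries were above the median of the Night libraries. C1qb rose 1.25-fold and 1.29-fold (log2 0.32 ± 0.06 and 0.36 ± 0.10 SE, edgeR adjusted p = 1.06e-04 and 0.00466) in the hippocampus and the frontal cortex. C1qc had 544, 724 and 986 CPM by day and 499, 594 and 686 CPM by night in the hippocampus, and 534, 718 and 1147 CPM against 441, 508 and 805 CPM in the frontal cortex. It rose 1.26-fold and 1.31-fold (log2 0.33 ± 0.07 and 0.39 ± 0.09 SE, edgeR adjusted p = 3.65e-04 and 0.00114). The phases overlapped for both chains in both regions. Without replicate 2, the change of C1qb in the frontal cortex had an adjusted p of 0.0589.

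The receptors for C3 products changed less. C3ar1, which binds C3a, had 103, 127 and 152 CPM by day and 91.4, 112 and 130 CPM by night in the hippocampus, a 1.15-fold rise (log2 0.21 ± 0.06 SE, edgeR adjusted p = 0.00528). In the frontal cortex its change was 0.08 ± 0.08 on the log2 scale (95% interval −0.09 to 0.24, edgeR adjusted p = 0.479). Itgb2, which encodes the shared chain of CR3 and the other CD18 integrins, had 166, 190 and 232 CPM by day and 147, 179 and 202 CPM by night in the hippocampus, a 1.11-fold rise (edgeR adjusted p = 0.0138). It rose in the frontal cortex 1.14-fold (log2 0.19 ± 0.07 SE, edgeR adjusted p = 0.0357). Both rises were the smallest called and were sensitive to the libraries: in the hippocampus, C3ar1 and Itgb2 no longer passed without replicate 1 (adjusted p = 0.0873 and 0.265) or without replicate 2 (0.101 and 0.280), and Itgb2 in the frontal cortex did not pass without replicate 1, 2 or 3 (0.115, 0.129 and 0.133).

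Itgam, the chain that pairs with Itgb2 in CR3, had 95.6, 115 and 135 CPM by day and 91.2, 109 and 139 CPM by night in the hippocampus. The ranges of the phases were nearly the same there. The log2 change was 0.08 (95% interval −0.02 to 0.19) in the hippocampus and 0.10 (−0.02 to 0.22) in the frontal cortex, and neither passed (edgeR adjusted p = 0.226 and 0.189).

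C3 and C4b had wide intervals. C4b, the component cleaved after C1q binds, had 16.2, 24.6 and 43.5 CPM by day and 18.01, 24.5 and 45.0 CPM by night in the hippocampus, with a log2 change of 0.11 (95% interval −0.15 to 0.38). In the frontal cortex its log2 change was −0.09 (−0.42 to 0.23). The phases overlapped widely in both regions. C3 had 0.457, 1.33 and 2.25 CPM by day and 0.705, 1.40 and 3.16 CPM by night in the hippocampus, with a log2 change of −0.24 (95% interval −0.65 to 0.16). In the frontal cortex its log2 change was 0.08 (−0.51 to 0.66), and it was −0.47 without replicate 2, the number that holds a Day Soci library with 9.64 CPM. The log2 change of C1qa, 0.42, lies inside the cortical interval of C3, so a change of that size was not excluded there, while its hippocampal 0.37 lies above the upper bound for C3.

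Markers of other cells moved with the phase. The 18 microglia markers included 13 that rose by day in the hippocampus and 10 in the frontal cortex, with median log2 changes of 0.28 and 0.23, and none that fell. Of 12 markers of border macrophages, 11 rose in the hippocampus and 7 in the frontal cortex, led in level by Stab1, Mrc1 and Dab2. Their summed level ran from 1003 to 1620 CPM by day and from 753 to 1176 CPM by night in the hippocampus, and from 1047 to 1706 CPM and 784 to 1341 CPM in the frontal cortex. Stab1 alone had a mean of 800 CPM in the hippocampus and 864 CPM in the frontal cortex, so these sums mostly reflect 1 gene. Of 12 astrocyte markers 10 fell in each region and 1 rose in the hippocampus, and all 12 choroid plexus markers, Ttr first, fell in the hippocampus, from a median sum of 2783 CPM by night to 459 CPM by day. Of 12 neuron markers, 4 fell in the hippocampus and 11 in the frontal cortex, of 11 tested oligodendrocyte markers 9 and 6 fell, and of 11 endothelial markers 6 and 1 fell. Of 13 neutrophil and monocyte markers, 1 rose and 1 fell among 7 tested in the hippocampus and none of 8 tested passed in the frontal cortex. All 3 ependymal markers tested in the hippocampus fell, and of 12 tested genes that respond to tissue dissociation, 8 rose in the hippocampus, while 4 rose and 2 fell in the frontal cortex. The part of these cells in the members' changes was not tested beyond the refits given next. In bulk RNA, fewer cells of a type and less RNA per cell cannot be told apart.

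Scaling each library to the summed microglia list in place of TMM moved the median of all genes to −0.26 in the hippocampus and −0.30 in the frontal cortex, and gave the members' change relative to those markers. On this scale C5ar1 was still higher by day, at a log2 of 0.19 ± 0.06 SE in the hippocampus and 0.33 ± 0.06 SE in the frontal cortex (edgeR adjusted p = 0.00934 and 3.66e-05). C1qa was at 0.08 ± 0.04 SE and 0.15 ± 0.04 SE and passed in the frontal cortex only (edgeR adjusted p = 0.102 and 0.00305), while C1qb and C1qc passed in neither region. Itgam was lower by day, at −0.20 ± 0.04 SE and −0.18 ± 0.05 SE (edgeR adjusted p = 2.58e-05 and 0.00178), and so was Itgb2, at −0.14 ± 0.03 SE and −0.08 ± 0.03 SE. C3ar1 was lower in the frontal cortex (−0.20 ± 0.03 SE, edgeR adjusted p = 3.03e-05). In total 1 member was higher and 3 lower in the hippocampus, where the third was C3, and 2 were higher and 4 lower in the frontal cortex, where the fourth was C4b. Of all genes, 1.91% were higher and 57.1% lower on this scale in the hippocampus, and 1.44% and 59.6% in the frontal cortex. With the mean log2 level of the same markers as scale, a setting added after the data were seen, the counts were 2 higher and 3 lower in the hippocampus and 4 higher and 2 lower in the frontal cortex, beside 2.38% and 50.9% of all genes in the hippocampus and 1.88% and 54.2% in the frontal cortex. C5ar1 was the only member higher by day in both regions on both marker scales.

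**Figure D2:**
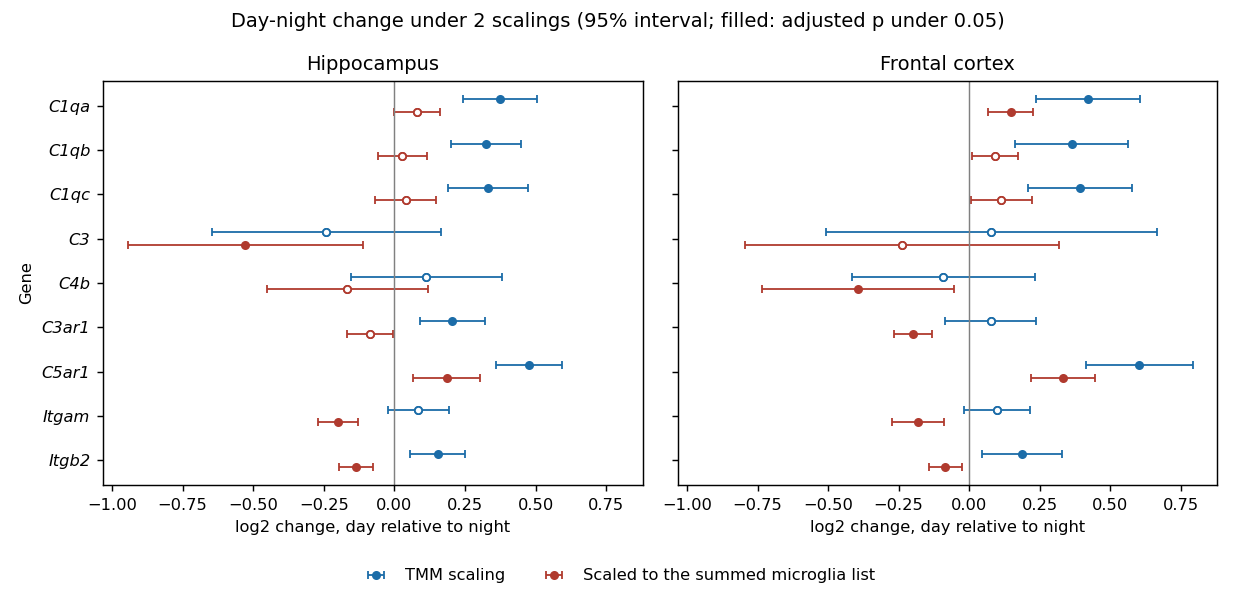
Change of each gene (vertical axis) by day relative to night on the log2 scale (horizontal axis) in each region, under TMM (blue) and scaled to the summed microglia markers (red). Points are estimates, bars 95% intervals, and open points did not pass; the C5ar1 points lie right of 0 under both scalings, and the Itgam and Itgb2 points move from right of 0 to left of it.

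With the border macrophage score as a covariate, 3 members passed in the hippocampus: C5ar1 stayed higher, and C3 and C4b were lower by day at −1.15 and −0.61 on the log2 scale (edgeR adjusted p = 0.00294 and 0.0031). In the frontal cortex 4 passed: C5ar1, C1qa and C1qc were higher, and C4b was lower at −0.80 (edgeR adjusted p = 1.30e-07). Of all genes, 4.11% were higher and 5.02% lower in that fit in the hippocampus, and 8.90% and 9.94% in the frontal cortex. With the scores of 7 cell types as covariates no member passed in the hippocampus, where C5ar1 was at 0.12 (edgeR adjusted p = 0.714), while 4 were higher (C5ar1 and the 3 C1q chains) and 1 lower (C4b) in the frontal cortex. In that fit 0.496% of all genes were higher and 0.541% lower in the hippocampus, and 14.3% and 10.5% in the frontal cortex. As given above, markers of most of these cell types, border macrophages included, moved with the phase themselves. Such a score takes up part of the difference between the phases, whatever its source, and the source was not tested. Among replicate 4 libraries alone, with 4 Day and 4 Night libraries in each region, none passed. So few libraries detect less for any gene, and the share of all genes in that fit is not given here.

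A ratio of 2 members within a library does not depend on scaling, and 6 such ratios were compared between the phases in each region by a 2-sided permutation test over 16 and 16 libraries, adjusted over the 12 tests. The ratio of C5ar1 to C3ar1 rose by day 1.21-fold in the hippocampus and 1.46-fold in the frontal cortex. Its mean log2 was −1.51 ± 0.18 (SD, n = 16) by day and −1.78 ± 0.19 (SD, n = 16) by night in the hippocampus (permutation p = 3.2e-04, adjusted p = 0.00192). It was −1.69 ± 0.12 (SD, n = 16) and −2.23 ± 0.18 (SD, n = 16) in the frontal cortex (permutation p = 1e-05, the smallest 100000 resamples can give, adjusted p = 1.2e-04). The difference between the regions in this change was not tested. No other ratio passed, although 4 of 6 did in the hippocampus without replicate 4 and 3 of 6 in the frontal cortex without replicate 2. The log2 difference by day was −0.05 for C1qb to C1qa in both regions (adjusted p = 0.0617 in each) and −0.05 and −0.03 for C1qc to C1qa (0.115 and 0.254). It was −0.59 and −0.60 for C3 to C1qa (adjusted p = 0.0591 and 0.0617), −0.28 and −0.45 for C4b to C1qa (0.0922 and 0.0617) and 0.07 and 0.10 for Itgb2 to Itgam (0.122 and 0.0617).

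**Figure D3:**
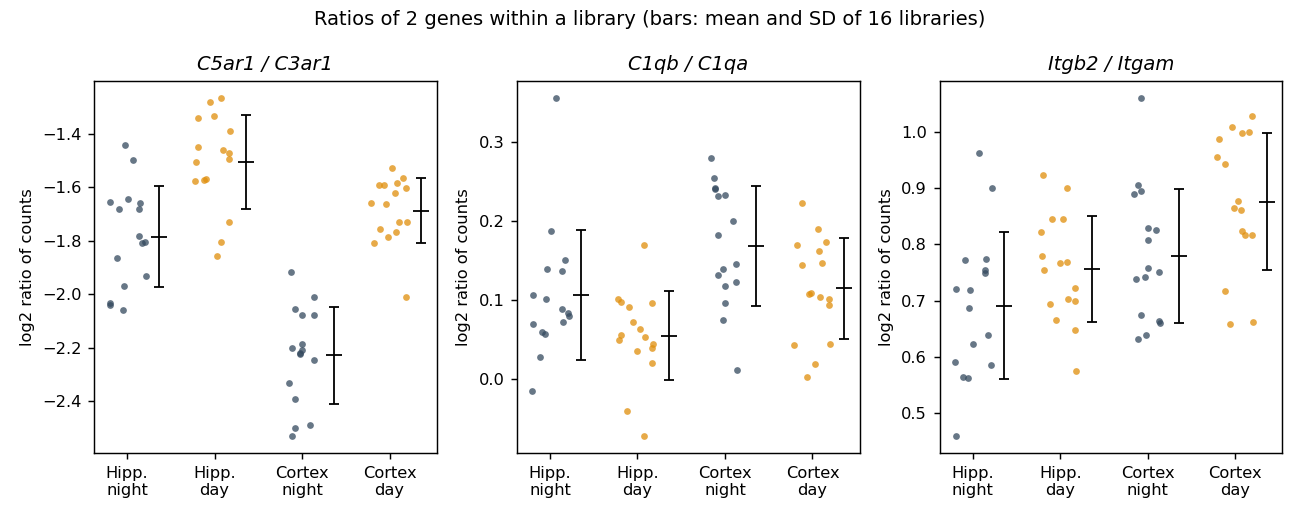
Log2 ratio of the counts of 2 genes within a library (vertical axes) by region and phase (horizontal axis). Points are libraries and bars are mean and SD of 16 libraries; the C5ar1 to C3ar1 ratio is higher by day in both regions, at a mean log2 of −1.69 against −2.23 in the frontal cortex.

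Within single conditions, with 4 Day and 4 Night libraries each, 5 of 36 gene and condition pairs rose by day in the hippocampus and 2 of 36 in the frontal cortex, and none fell. The share of all genes that rose in the hippocampus was 8.10% within Ctr0, 5.04% within Ctr1, 2.28% within Cogn and 5.11% within Soci, and in the frontal cortex 1.84%, 2.27%, 2.49% and 4.78%. C5ar1 made 5 of the 7 calls: hippocampal Ctr0 (1.55-fold, edgeR adjusted p = 0.00173), Ctr1 (1.499-fold, 0.0022) and Cogn (1.37-fold, 0.0144), and cortical Ctr1 (1.83-fold, 0.00489) and Soci (1.47-fold, 0.0452). The others were C1qa and C1qb in hippocampal Ctr0 (1.36-fold and 1.37-fold, edgeR adjusted p = 0.0399 and 0.0274). Leaving out one replicate number gave 1 to 4 calls in the hippocampus and 0 to 5 in the frontal cortex, with 1 in the hippocampus without replicate 4, none in the frontal cortex without replicate 2 or 3, and 5 there without replicate 4. The shares of all genes in these fits are not given here, so the counts are not read as a result about the members. The mean of C5ar1, C1qa, C1qb, C1qc, C3ar1, Itgam and Itgb2 was higher by day in 4 of 4 conditions in both regions. That of C4b was higher in 3 of 4 in the hippocampus and 2 of 4 in the frontal cortex. For C3 the counts were 0 of 4 and 2 of 4. The share of all genes higher in 4 of 4 is not given here. In none of the 9 genes did the day-night change differ among the conditions in either region by the edgeR test of the interaction, which called 0% of all genes in the hippocampus and 0.00616% in the frontal cortex. No member reached an unadjusted p under 0.05 in that test, and DESeq2 also called none.

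**Figure D4:**
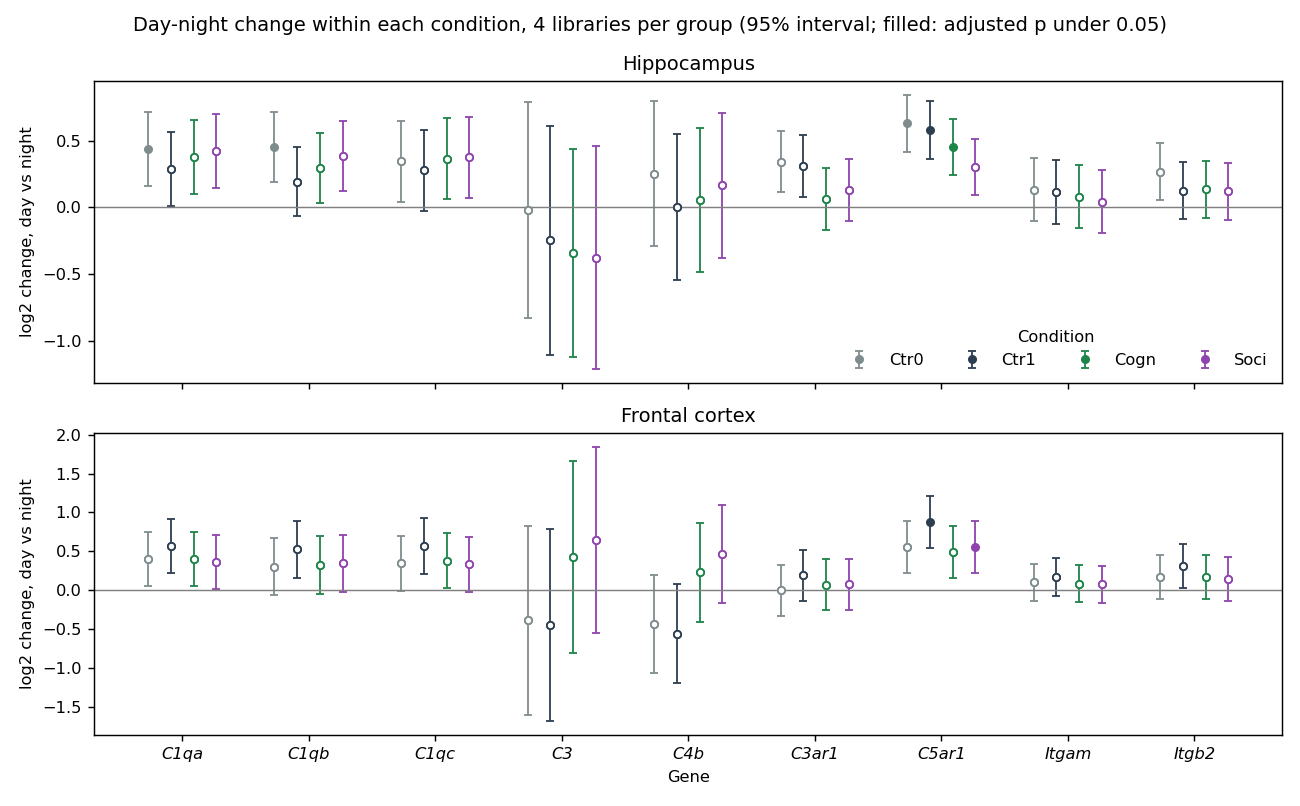
Log2 change by day relative to night (vertical axes) of each gene (horizontal axis) within each condition (colour), from 4 and 4 libraries. Bars are 95% intervals and open points did not pass; the 5 filled C5ar1 points lie between 0.45 and 0.88.

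Across the 16 groups, C5ar1 in the hippocampus was lowest in Night Ctr1 (29.7 ± 1.79 CPM, SD, n = 4) and Night Ctr0 (29.7 ± 2.66), followed by Night Soci (35.2 ± 3.10), Night Cogn (35.3 ± 3.50), Day Soci (42.6 ± 7.29), Day Ctr1 (43.0 ± 3.897), Day Ctr0 (44.4 ± 6.41) and Day Cogn (47.6 ± 3.83). In the frontal cortex the order was Night Ctr1 (24.7 ± 2.71), Night Ctr0 (26.9 ± 4.19), Night Cogn (32.1 ± 10.8), Night Soci (35.1 ± 5.66), Day Ctr0 (39.9 ± 5.72), Day Ctr1 (45.0 ± 5.35), Day Cogn (45.8 ± 4.07) and Day Soci (50.9 ± 9.40). Every Day mean stood above every Night mean in both regions. Between neighbours in the order, only the step from Night Ctr0 to Night Soci in the hippocampus was larger than the SD of both groups.

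C1qa had the same split of the phases, from 674 ± 85.05 CPM (SD, n = 4) in Night Soci to 931 ± 146 CPM in Day Cogn in the hippocampus and from 626 ± 69.3 CPM in Night Ctr1 to 1049 ± 294 CPM in Day Soci in the frontal cortex. The split was also seen for C1qc in both regions, and for C1qb, C3ar1, Itgb2 and Itgam in the hippocampus only. Itgam had it there although its day-night change did not pass. The share of all genes with such a split is not given here, so it is not shown to be particular to the members. C1qb and C1qc spanned 721 to 955 CPM and 582 to 796 CPM in hippocampal groups, and 701 to 1166 CPM and 481 to 790 CPM in cortical ones. C3ar1 ran from 106 CPM in Night Ctr1 to 139 CPM in Day Ctr0 in the hippocampus and from 129 CPM in Night Ctr1 to 160.5 CPM in Day Soci in the frontal cortex. Itgb2 spanned 175 to 203 CPM and 169 to 225 CPM, and Itgam spanned 109 to 119 CPM and 102 to 123 CPM. C4b spanned 22.8 to 30.9 CPM in the hippocampus and 27.7 CPM in Night Soci to 42.0 CPM in Night Ctr0 in the frontal cortex, and C3 spanned 0.998 to 1.87 CPM and 1.91 to 3.59 CPM. For these 8 genes no step between neighbouring groups in either region exceeded the SD of both. Sorting spreads the range over 7 steps, so small steps do not show that the groups were alike. C1qa had no such step although its day-night change passed in both regions.

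The second question is whether the conditions differ. With the phases averaged, 0 of 9 members differed among the 4 conditions in either region by edgeR and by DESeq2, and edgeR called 0% of all genes in both. At an unadjusted p under 0.05, none of the 9 stood out in the hippocampus, and 3 did in the frontal cortex: C5ar1, C1qb and C1qa (unadjusted p = 0.0108, 0.0190 and 0.0310, edgeR), beside 6.74% of all genes. Of 54 gene and pair combinations over the 6 pairs of conditions, none passed in either region (lowest adjusted p = 0.452 and 0.461), by DESeq2 also none. With library totals alone as scale, 3 members (C1qa, C1qc and C5ar1) differed among the conditions in the hippocampus, beside 23.0% of all genes, and 7 of the 54 combinations passed there. All 7 were higher in Soci relative to Ctr1, a pair in which 57.5% of all genes were higher and 0.202% lower on that scale and the median of all genes was 0.41. In the frontal cortex 13 of 54 had an unadjusted p under 0.05, of which 7 were in Soci relative to Ctr0, where the median log2 difference over the members was 0.30 and 10.7% of all genes had such a p. The same pair in the hippocampus gave 1 of 9, with a median of −0.05.

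The third comparison is between regions. C3, C4b and C3ar1 were lower in the hippocampus than in the frontal cortex with the phases averaged, and no member was higher. Of all genes tested, 16.6% differed, 6.17% being lower and 10.4% higher in the hippocampus. C3ar1 had 91.4, 117 and 152 CPM (lowest, median, highest of 32) in the hippocampus and 104, 136 and 205 CPM in the frontal cortex, which differed by −0.26 ± 0.05 SE on the log2 scale (edgeR adjusted p = 1.30e-04). C4b had 16.2, 24.5 and 45.0 CPM against 16.5, 36.1 and 60.8 CPM, which differed by −0.40 ± 0.11 SE (log2, edgeR adjusted p = 0.00698). C3 had 0.457, 1.40 and 3.16 CPM against 0.49, 2.01 and 9.64 CPM, which differed by −0.72 ± 0.19 SE (log2, edgeR adjusted p = 0.00372). The regions overlapped for all 3 genes. The C1q chains were within −0.12 and 0.08 on the log2 scale, and C5ar1, Itgam and Itgb2 within −0.08 and 0.05. With library totals alone as scale, C1qb and Itgb2 were lower too (log2 −0.23 and −0.19), beside 10.5% of all genes lower and 5.31% higher.

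Markers of several cell types also differed by region. Of 10 tested neutrophil and monocyte markers 7 were lower in the hippocampus, as were 4 of 12 border macrophage and 3 of 18 microglia markers. All 12 choroid plexus markers were higher there, as were 2 of 3 tested ependymal, 3 of 11 tested oligodendrocyte and 1 of 11 endothelial markers. Of 12 astrocyte markers 4 were lower and 2 higher, and of 12 neuron markers 3 were lower and 1 higher. The part of these cells in the members' region differences was not tested. Without replicate 2 the difference of C3 was −0.43 (edgeR adjusted p = 0.138), and with the border macrophage score as covariate that of C4b was −0.14 (adjusted p = 0.121). C3ar1 passed under all alternatives run except replicate 4 alone (adjusted p = 0.293). Scaled to the summed microglia list, C3ar1 and C3 stayed lower, while C1qc, C5ar1 and Itgam were higher in the hippocampus, at 0.16, 0.14 and 0.10 on the log2 scale, beside 12.8% of all genes higher and 1.84% lower. For 0 of 9 members did the change from night to day differ between the regions by edgeR and by DESeq2 (lowest unadjusted p = 0.147), beside 1.19% of all genes. For C5ar1 the difference was −0.17 (95% interval −0.39 to 0.06) and for C1qa −0.09 (−0.31 to 0.14).

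The members also varied between libraries of one group. With each group's mean taken out, the log2 levels of C1qa and C1qb had a Pearson r of 0.95 over the 64 libraries, and those of C1qa and C1qc had 0.93. Itgb2 and C3ar1 had 0.87, Itgam and Itgb2 0.77, C5ar1 and C3ar1 0.75, and C3 and C4b 0.58. C3 and C4b had at most 0.40 with any of the other 7 genes. The libraries share their preparation and their depth differs, so these values are descriptions. The score of the microglia list had 0.95 with Itgb2 and 0.91 with C1qa, but 0.17 with C4b and 0.22 with C3. C4b had 0.86 with the border macrophage score, and C3 had 0.71 with the neutrophil and monocyte score.

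Among genes whose average level was 4 or more in log2 CPM, those most like C1qa were Itm2c, Tyrobp and Selplg (r = 0.95, 0.95 and 0.95). Most like C3 were Lyz2, a lysozyme of myeloid cells, Ms4a6c and H2-Eb1, a class II antigen presentation gene (0.68, 0.66 and 0.65). Most like C4b were Cybb, a subunit of the phagocyte oxidase, and the scavenger and mannose receptors Cd163 and Mrc1 (0.82, 0.81 and 0.80). Most like C3ar1 were Mpeg1, Tpp1 and Lcp1 (0.94, 0.94 and 0.93), and most like Itgam were Grb2, Ly86 and Golm1 (0.86 each).

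**Figure D5:**
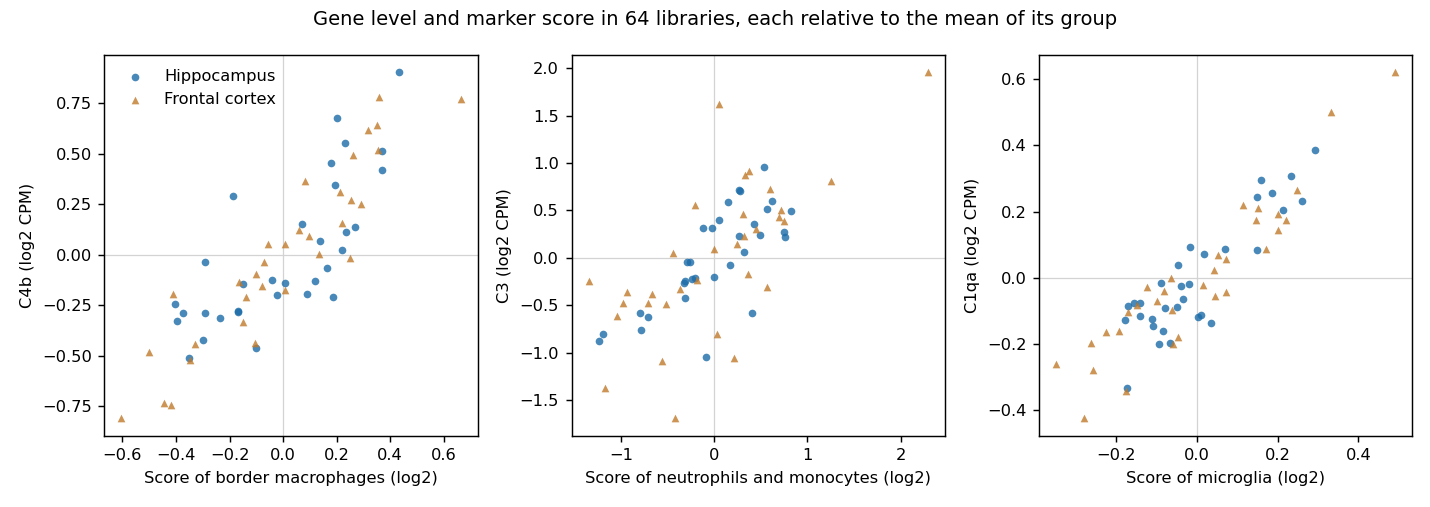
Level of C4b, C3 and C1qa (vertical axes, log2 CPM) against the score of border macrophage, neutrophil and monocyte, and microglia markers (horizontal axes, log2) in 64 libraries, each relative to the mean of its group of 4. Points are libraries and shapes regions; the Pearson r values are 0.86, 0.71 and 0.91 from left to right.

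Of 52 other complement genes, 27 passed the count filter in the hippocampus, where 5 rose by day and 7 fell, and 26 in the frontal cortex, where 5 rose and 6 fell. The 12 of 27 and 11 of 26 that changed are close to the shares of all genes tested, 42.2% and 41.8%. By role, 0 of 7 tested genes that start the classical, lectin and alternative routes rose and 2 fell in the hippocampus, and 1 rose and 2 fell in the frontal cortex. None of the 7 terminal pathway genes passed the count filter in either region. Of the regulators, which keep the cascade off host cells, 3 rose and 4 fell in each region, of 14 and 13 tested. Of 6 other complement receptors tested, 2 rose and 1 fell in the hippocampus and 1 rose in the frontal cortex.

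C5ar2, the second C5a receptor, rose in both regions (log2 0.43 ± 0.05 and 0.39 ± 0.06 SE, edgeR adjusted p = 9.45e-08 and 8.71e-06). Csmd3 rose in the hippocampus (0.31), and Fcna, a ficolin that starts the lectin route, rose in the frontal cortex (0.43 ± 0.18 SE, edgeR adjusted p = 0.0464). Clu, which encodes clusterin, fell most in both (log2 −1.69 ± 0.16 and −0.96 ± 0.22 SE). It was followed by Vtn and Cd55 in the hippocampus (−0.72 and −0.72) and by Sez6 and the protease gene Masp1 in the frontal cortex (−0.85 and −0.64). Between regions, 7 of 27 were higher in the hippocampus, led by Clu, Sez6l and Serping1 (0.78, 0.73 and 0.71), and Itgax, the CD11c chain of complement receptor 4, was lower (−0.35 ± 0.07 SE, edgeR adjusted p = 1.68e-04).

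Of 18 other genes tied to synapse pruning, 9 rose and 4 fell by day in the hippocampus, and 5 rose and 6 fell in the frontal cortex, beside 23.4% of all genes rising and 18.8% falling in the hippocampus and 20.6% and 21.3% in the frontal cortex. Cx3cr1, Trem2 and Tyrobp of this list are also among the microglia markers above, so the 2 lists are not separate. Itgb5, an integrin chain that pairs with the product of Itgav to bind apoptotic cells, rose in both regions (log2 0.51 ± 0.06 and 0.57 ± 0.08 SE, edgeR adjusted p = 6.10e-08 and 3.26e-06). Itgav rose by 0.26 and 0.24 on the log2 scale, Mertk, a receptor for apoptotic cells, by 0.32 in the hippocampus, and Tyrobp, the adaptor of TREM2, by 0.25 in the frontal cortex. The genes that fell most were Itgb8, Megf10, a phagocytic receptor of astrocytes, and Il33 (log2 −1.68, −0.93 and −0.59 in the hippocampus and −1.02, −1.14 and −0.69 in the frontal cortex). Between regions, Itgb8 and Gas6, a ligand of Mertk, were higher in the hippocampus (0.63 and 0.15), and Megf10 and Cd47, a signal against uptake, were lower (−0.48 and −0.18).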

How the data were processed

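Total RNA of CD11b-sorted microglia was measured in 64 libraries. According to the methods and the submitters' processing notes, the authors sequenced rRNA-depleted libraries from one end, aligned the reads to GRCm38.p5 with STAR 2.7.3a and counted them per gene with featureCounts (Subread 2.0.0). The deposited values are raw counts; the strand setting and the treatment of multiply matching reads are not given in the sources used here. Of 49671 gene IDs, 49326 matched GENCODE M21.

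Counts were tested with edgeR 4.0.16 (TMM, filterByExpr, quasi-likelihood F test, R 4.3.3) within each region, with Benjamini-Hochberg adjustment over all genes tested and a threshold of 0.05. Regions were compared over all 64 libraries with 4 region and phase means. The methods describe dissecting hippocampi and frontal cortices from the brains, so libraries of both regions may share animals, which the labels do not say. The 32 pairs of the same phase, condition and replicate number across regions had a median correlation of deviations of 0.0063. It was 0.0102 with other numbers, and the regions were not paired. Ratios used counts plus 0.5 and 100000 resamples (SciPy 1.17.1). Correlations used log2 CPM with a prior count of 2. A score is the mean centred log2 CPM of a marker list. Depth limits the precision of C3, with 7 counts in its lowest library. The scripts were tested on simulated data. Named genes of the 2 other lists are the 3 largest rises and falls past the threshold, and the 3 genes most like a member are by correlation. Some genes that these rules name are not reported here. The members and lists were chosen with earlier results of these data known. Alternatives were DESeq2 1.42.0, other scalings, filters and covariates, left-out replicates and a replicate block.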

Additional observations from a re-analysis of the deposited data

Results flagged for a closer look

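Each of the 9 genes was examined in each of the 16 groups of 4 libraries for a highest or lowest library far from the other 3 (Dixon's test at its 95% critical value). Of 144 groups 8 stood out, and chance alone gives 7.2. These are values only, with no cause tested.

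C1qa was high in replicate 4 of hippocampal Night Soci (801 CPM, the others 618 to 642 CPM), and C1qb was high in the same library (842 CPM, the others 680 to 700 CPM), which is the deepest of all, at 84.5 M counts. C1qa was also high in replicate 1 of cortical Day Cogn (1150 CPM, the others 922 to 949 CPM). C5ar1 was high in replicate 2 of hippocampal Day Soci (53.4 CPM, the others 37.6 to 39.9 CPM).

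C3 was high in replicate 2 of cortical Day Soci (9.64 CPM, the others 0.856 to 2.02 CPM), where the summed level of 13 neutrophil and monocyte markers was 194 CPM, the highest of the 64 libraries, against 20.4 to 43.8 CPM in the other 3 of its group. C4b was high in replicate 3 of hippocampal Night Cogn (45.0 CPM, the others 22.3 to 25.5 CPM), where the border macrophage markers summed to 1176 CPM, the highest of the 16 hippocampal Night libraries. As given above, Stab1 leads such sums. Itgam was low in replicate 2 of cortical Night Ctr1 (87.6 CPM, the others 108 to 109 CPM), and Itgb2 was low in replicate 1 of hippocampal Night Cogn (156 CPM, the others 185 to 190 CPM).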

How the results depend on the processing

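C5ar1 kept its day-night call in 16 of 18 alternatives in the hippocampus and 16 of 17 in the frontal cortex. C3 had 7 counts in its lowest library, which limits its precision. The cause of the changes listed here was not tested. The microglia list as mean log2 level and the omission of the 3 deepest hippocampal libraries were added after the data were seen.

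Of 6 members called between day and night in the hippocampus, library totals alone left 1, the border macrophage score 3, and the 7 scores and replicate 4 only 0 each. Of 5 in the frontal cortex, library totals left 3 and replicate 4 only 0. Within conditions, the 5 hippocampal calls became 0 with library totals and with 7 scores, 1 with either microglia scaling and with the border macrophage score, and 3 with no count filter, and the 2 cortical calls became 1 with library totals, no filter, the library total as covariate or the mean log2 scaling, 6 with DESeq2 and 4 with the border macrophage score. Library totals gave 3 members among the hippocampal conditions and 7 over their pairs, against 0. The 12 other complement genes in the hippocampus became 3 with the border macrophage score and 0 with 7 scores or replicate 4 only, and the 11 in the frontal cortex became 7 with either the library total or border macrophage covariate and 0 with replicate 4 only. The 3 calls between regions became 5 with library totals or the summed microglia list, 6 with the mean log2 scaling, 1 with 7 scores and 0 with replicate 4 only. With replicate 4 only no ratio passed. The fits on replicate 4 only have 4 Day and 4 Night libraries per region and detect less for any gene. Shares of all genes are given above for only some of these settings.

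Leaving out one replicate number at a time gave 4 to 6 members in the hippocampus and 3 to 5 in the frontal cortex between day and night, 1 to 4 and 0 to 5 within conditions, 8 to 13 and 6 to 9 other complement genes, 1 to 4 and 1 to 3 ratios, and 2 to 3 members between regions. Each of these fits has fewer libraries, and the shares of all genes in them are not given here.

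Of pairs with the same replicate number, 44 of 112 in the hippocampus and 55 of 112 in the frontal cortex had a correlation of their deviations over 0.1, so not every pair did and the numbers were not used as pairs. The median correlation in the frontal cortex was 0.0698 with the same number and −0.0518 with other numbers, 14 of 32 libraries there had their highest mean correlation with their own number (9 of 32 in the hippocampus), and C3ar1 lay below its group mean in 8 of 8 replicate 1 libraries and above it in 8 of 8 of replicate 3. A replicate block gave 2 ratios in the hippocampus and 5 in the frontal cortex, against 1 each, and turned C3 in the frontal cortex to −0.039.

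Directions of single genes turned as follows, on the log2 scale. With library totals alone, the day-night change was −0.051 for C4b, −0.091 for Itgam and −0.012 for Itgb2 in the hippocampus and −0.0027 for C3 in the frontal cortex, and the region difference was −0.030 for C1qc, −0.050 for C5ar1 and −0.078 for Itgam. Scaled to the summed microglia list, it was −0.17 for C4b, −0.085 for C3ar1, −0.20 for Itgam and −0.14 for Itgb2 in the hippocampus, −0.24 for C3, −0.20 for C3ar1, −0.18 for Itgam and −0.084 for Itgb2 in the frontal cortex, and 0.031 for C1qa and 0.0015 for Itgb2 between regions. On the mean log2 scaling the same changes were −0.14, −0.054, −0.17 and −0.10, then −0.21, −0.17, −0.16 and −0.058, and 0.026 for C1qa. With the border macrophage score, C4b was at −0.61 and Itgam at −0.0021 in the hippocampus, and C3 at −0.66 and C3ar1 at −0.0087 in the frontal cortex. With 7 scores, C4b was at −0.48, C3ar1 at −0.15, Itgam at −0.16 and Itgb2 at −0.075 in the hippocampus, and C3 at −0.41 in the frontal cortex, where the library total as covariate gave −0.10. With replicate 4 only, Itgam was at −0.064 in the hippocampus, C3, C3ar1, Itgam and Itgb2 were at −1.06, −0.13, −0.076 and −0.035 in the frontal cortex, and the ratios C1qb to C1qa and C4b to C1qa were 0.039 and 0.21 in the hippocampus and C1qc to C1qa 0.042 in the frontal cortex. Leaving out one replicate number, C3 ran from −0.47 to 0.37 in the frontal cortex, C4b from −0.069 to 0.22 in the hippocampus and from −0.17 to 0.010 in the frontal cortex, and Itgam from −0.011 to 0.045 between regions.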
